A study of Mus musculus with 6 samples.

Results

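The alpha and beta tubulins described here are 10 genes, the 3 alpha tubulins Tuba1a, Tuba1b and Tuba4a and the 7 beta tubulins Tubb2a, Tubb2b, Tubb3, Tubb4a, Tubb4b, Tubb5 and Tubb6. They were found by their Ensembl identifiers, matched to symbols in the GENCODE M21 annotation of GRCm38, and make up 10 of the 46078 genes of the table. All 10 had a mean of at least 10 normalized reads and entered the tests. The family was chosen by a measured value, the lower count of Tubb2b in the transgenic mice, so the Tubb2b difference is given as a description with no test.

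The striatum was taken from 12-week-old male mice on the C57BL/6J background, 3 of them wild-type (WT) and 3 carrying an EGFP-Shank3 transgene (TG). Shank3 is a scaffold protein of the excitatory postsynapse, and the TG mice express it in excess. RNA of each mouse was sequenced as 1 library, so the 3 values of a genotype come from separate animals. The promoter of the transgene and the litters of the mice are not given in the sources used here.

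Alpha and beta tubulin form the dimer from which microtubules are built, the tracks and struts of axons and dendrites. A cell makes several versions of each, called isotypes, that differ mainly in the acidic tail at the end of the protein, where modifying enzymes add glutamate or glycine and microtubule-binding proteins attach. The RNA of most tubulins is also held in check by the protein itself. When free dimers are in excess, the factor TTC5 recognises the first amino acids of a tubulin as it leaves the ribosome, and its RNA is degraded. Tubb2b is known for its part in migrating and newly born neurons, where mutations disturb the layering of the cortex.

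Tubb2a and Tubb2b lie beside each other on chromosome 13, and their coding sequences, 1338 bases each, were 96.5% identical. They differed at 47 bases, and the longest stretch with no difference spanned 551 bases, far longer than a read. The last 60 coding bases, which encode most of the acidic tail and end in the stop codon, are shown because they are the region by which the isotypes are usually told apart. For this pair they differed at 3 bases, which are in capitals. None of these changes the encoded amino acid, so this stretch encodes the same tail in both genes. Both are read 5′ to 3′ on the minus strand of GRCm38, Tubb2a from chr13:34074468-34074527 and Tubb2b from chr13:34127471-34127530.
Tubb2a: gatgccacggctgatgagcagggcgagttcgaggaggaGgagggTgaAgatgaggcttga
Tubb2b: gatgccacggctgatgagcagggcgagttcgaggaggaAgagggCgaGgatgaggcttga

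Tuba1a and Tuba1b on chromosome 15 were still closer, with 98.3% identity over 1356 bases and 23 differing bases.

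The last 60 coding bases of Tubb3, the neuronal isotype (plus strand, chr8:123421623-123421682), and of Tubb4a, an isotype of neurons and oligodendrocytes (minus strand, chr17:57080690-57080749), are shown for contrast. Apart from Tubb2a and Tubb2b, the coding sequences of any pair of beta tubulins were between 80.3% and 85.9% identical, and those of an alpha and a beta tubulin between 56.0% and 58.5%.
Tubb3: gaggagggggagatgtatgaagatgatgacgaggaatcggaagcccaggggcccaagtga
Tubb4a: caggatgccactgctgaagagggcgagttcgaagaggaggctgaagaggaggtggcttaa

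The first 12 coding bases encode the amino acids that the degradation machinery reads. They are given here for the pair on chromosome 13, for Tubb3 and for Tuba1a, with the bases that differ from Tubb2b in capitals. Only the last codon shown for Tuba1a encodes another amino acid, and Tubb2b, Tubb2a and Tubb3 encode the same ones. Tubb2b is read from the minus strand at chr13:34130222-34130233, Tubb2a from the minus strand at chr13:34077918-34077929 and Tubb3 from the plus strand at chr8:123411606-123411617. The Tuba1a bases, on the minus strand of chromosome 15, span 98951683 to 98953453 and are split by an intron within that span.
Tubb2b: atgcgagagatc
Tubb2a: atgcgCgagatc
Tubb3: atgAgGgagatc
Tuba1a: atgcgTgagTGc

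The deposited values are read counts divided by a size factor for each library, called normalized read counts below, from libraries of 27689589 to 36647626 counted reads or read pairs. As a check of the labels, Shank3 had 28081 ± 1934 normalized reads in TG and 13530 ± 531 in WT striatum (SD, n = 3 each), a log2 fold change of 1.05 (SE 0.06, limma adjusted p = 7.04e-05). It was the 1 gene of 17605 that passed an adjusted p of 0.05 by limma, which is 0.00568% of the genes tested. TG replicate 1 stood apart in choroid plexus genes, whose summed count was 28736 in that library and between 8060 and 9471 in the other 5. Log2 fold changes below are TG minus WT on the scale of log2(normalized read count + 1), with limma's standard error (SE).

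Tubb2b (ENSMUSG00000045136, chromosome 13, 34126748 to 34130466, minus strand, 4 exons in its longest transcript) had 2783, 2911 and 2775 normalized reads in TG replicates 1, 2 and 3. In WT replicates 1, 2 and 3 it had 3197, 3620 and 3112. Each TG value was lower than each WT value, and WT replicate 2 was the highest of the 6. The means were 2823 ± 76.4 in TG and 3310 ± 272 in WT (SD, n = 3 each), a difference of -14.7% or -0.23 on the log2 scale (SE 0.06). The SD of Tubb2b within a genotype was 0.087 on the same scale. This is the difference the family was selected on. Between 2590 and 3871 recovered reads stood behind each value.

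With 1 library left out at a time, the Tubb2b difference lay between -0.27, without WT replicate 3, and -0.16, without WT replicate 2.

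Tubb2a (ENSMUSG00000058672, chromosome 13, 34074274 to 34078007, minus strand), a broadly used neuronal beta tubulin, had 8862, 7364 and 8040 normalized reads in the TG replicates and 7482, 8096 and 7204 in the WT replicates. The genotypes overlapped, with the highest value in TG replicate 1 and the lowest in WT replicate 3. The mean was 8089 ± 750 in TG and 7594 ± 457 in WT, a log2 fold change of 0.09 (SE 0.07), with the opposite sign to that of Tubb2b. The sum of the pair was 10912 ± 690 in TG and 10904 ± 727 in WT.

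Within a library, Tubb2b amounted to 31.4%, 39.5% and 34.5% of the Tubb2a count in the TG replicates and to 42.7%, 44.7% and 43.2% in the WT replicates. The genotypes did not overlap in this ratio, which no scaling between libraries can move. It contains the value the family was selected on and so carries no test. Of all beta tubulin counts, Tubb2b made up 4.55% ± 0.33 in TG and 5.20% ± 0.28 in WT (SD, n = 3 each).

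**Figure D1:**
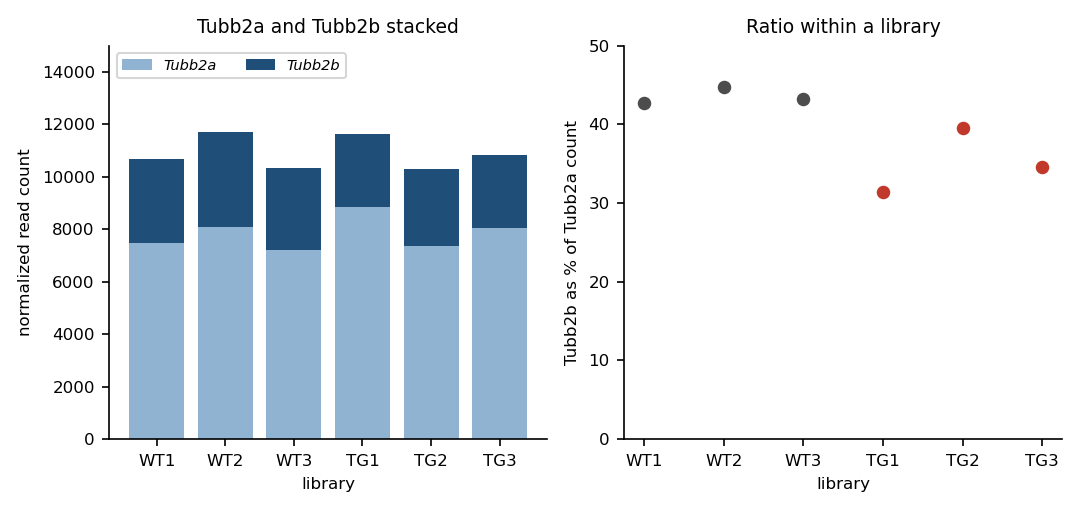
Left, normalized read counts of Tubb2a and Tubb2b stacked for each of the 6 libraries. Right, Tubb2b as a percentage of the Tubb2a count in the same library, with WT in grey and TG in red. The stacked totals lie between 10275 and 11717 with the genotypes mixed, while the 3 TG ratios (31.4% to 39.5%) all lie under the 3 WT ratios (42.7% to 44.7%).

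Reads can be assigned to this pair with certainty only in part. Of all windows as long as a read, 36.7% in Tubb2a and 27.6% in Tubb2b occurred letter for letter in an annotated transcript of another gene. The 540 windows that Tubb2a and Tubb2b had in common accounted for most of them. The reads were paired, and a window takes no account of the mate, so these shares are not shares of read pairs. How the counting treated reads that match several places is not given in the sources used here. The levels of both genes are therefore uncertain, and the part of the counting in their opposite signs was not tested.

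The other beta tubulins overlapped between the genotypes. Tubb4a (ENSMUSG00000062591, chromosome 17, 57080066 to 57087782, minus strand) came nearest to separating, with 22831, 22394 and 23975 normalized reads in TG and 24350, 23921 and 25091 in WT. TG replicate 3 lay above WT replicate 2, and the others lay below all 3 WT values. The log2 fold change was -0.08 (SE 0.05, limma adjusted p = 0.971).

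Tubb3 (ENSMUSG00000062380, chromosome 8, 123411424 to 123422015, plus strand), a standard marker of neurons, had 9258, 8443 and 8690 normalized reads in TG and 8656, 9713 and 8573 in WT. Tubb5 (ENSMUSG00000001525, chromosome 17, 35833921 to 35838306, minus strand), found in nearly every cell type, had 14512, 12931 and 13702 in TG and 13669, 14629 and 13078 in WT. In both genes WT replicate 2 was the highest library, and the log2 fold changes were -0.03 (SE 0.06) for Tubb3 and -0.01 (SE 0.06) for Tubb5. The highest and lowest values of Tubb5 were WT replicate 2 and TG replicate 2, with the other 4 between them.

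Tubb4b (ENSMUSG00000036752, chromosome 2, 25222160 to 25224702, minus strand), a general isotype that is also used in cilia, had 5979, 4885 and 5744 normalized reads in TG and 5450, 5470 and 5022 in WT, so that the TG values spanned the WT values. Its log2 fold change was 0.05 (SE 0.07). Tubb6 (ENSMUSG00000001473, chromosome 18, 67390717 to 67402749, plus strand), a minor isotype, was the scarce member, with 202, 172 and 165 in TG and 143, 200 and 185 in WT. Between 125 and 235 recovered reads stood behind its values, and its log2 fold change of 0.04 had the widest error of the family (SE 0.14).

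The 3 alpha tubulins overlapped between the genotypes as well. Tuba1a (ENSMUSG00000072235, chromosome 15, 98949837 to 98953703, minus strand), the main alpha tubulin of developing and adult neurons, had 19831, 15998 and 19459 normalized reads in TG and 19729, 17756 and 17362 in WT. Both the highest and the lowest value were TG libraries, and the means, 18429 ± 2114 and 18282 ± 1268, differed by 0.01 on the log2 scale (SE 0.08).

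Tuba1b (ENSMUSG00000023004, chromosome 15, 98931425 to 98934565, minus strand), its broadly expressed neighbour, had 5452, 4602 and 5449 normalized reads in TG and 4747, 5406 and 4592 in WT. TG replicate 2 sat with WT replicates 1 and 3, and WT replicate 2 with the other TG libraries, for a log2 fold change of 0.07 (SE 0.08). Of the windows as long as a read, 49.1% in Tuba1a and 65.4% in Tuba1b also occurred in another annotated gene, 443 of them in the other member of the pair. More were found in Tuba1c, 591 for Tuba1a and 796 for Tuba1b, a related gene that itself had only 9.74 to 35.2 normalized reads per library, and others in pseudogenes. A larger share of windows thus occurred in another gene than for any beta tubulin. The 443 in common within the pair were fewer than the 540 of Tubb2a and Tubb2b. The split of reads between these genes is uncertain as well.

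Tuba4a (ENSMUSG00000026202, chromosome 1, 75214228 to 75219865, minus strand), an alpha tubulin of mature neurons that is encoded without the usual terminal tyrosine, had 12316, 10816 and 12218 normalized reads in TG and 11524, 12644 and 11682 in WT, a log2 fold change of -0.02 (SE 0.06). The genotypes overlapped, with TG replicate 2 lowest and WT replicate 2 highest. Stk16, a kinase gene on the opposite strand with a mean of 1189 normalized reads, covers 1379 of its 3701 exon bases, and the library kit does not mark strand, so reads of the 2 genes cannot be told apart there. Tuba4a, Tubb3, Tubb4a, Tubb5 and Tubb6 had 0 such windows in common with another annotated gene.

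**Figure D2:**
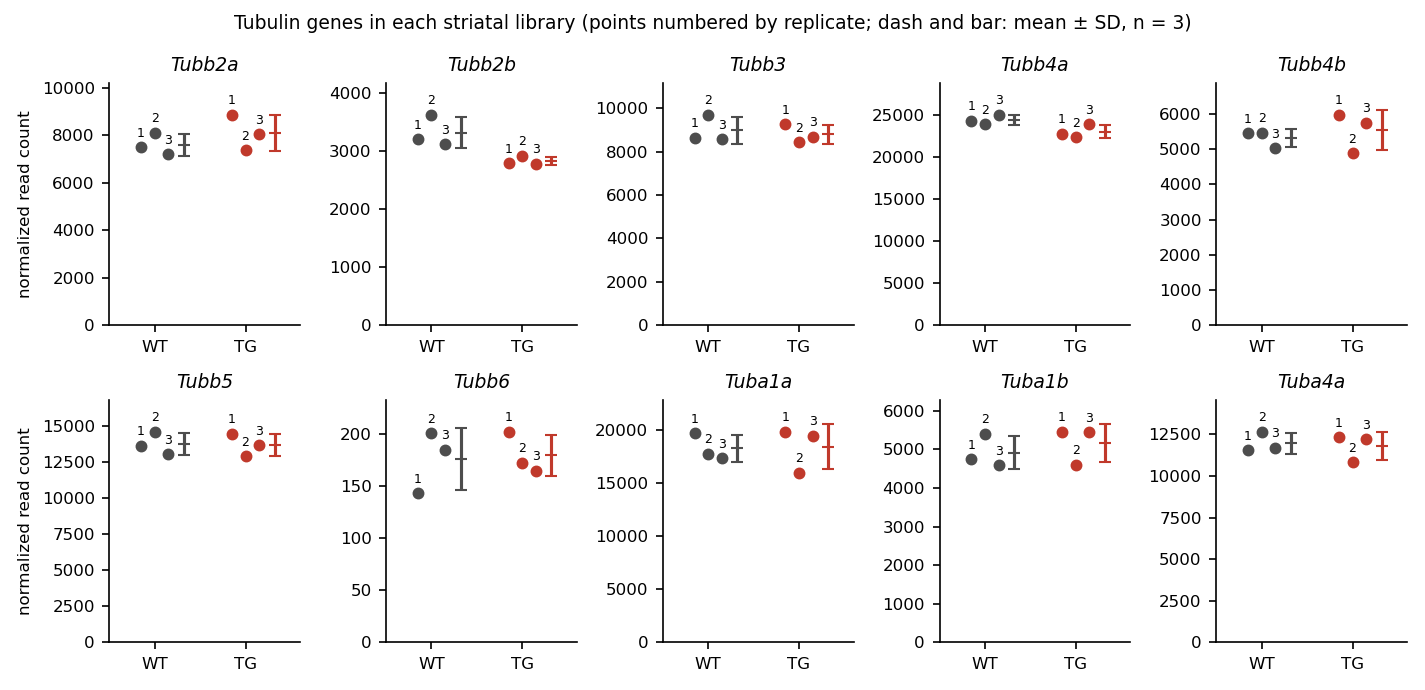
Normalized read counts (vertical axes, each from 0) of the 10 tubulin genes in the 3 WT (grey) and 3 TG (red) libraries, with points numbered by replicate and the mean ± SD beside them. The WT and TG points overlap in every panel except that of Tubb2b, where TG lies between 2775 and 2911 and WT between 3112 and 3620.

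None of the 9 tubulins other than Tubb2b passed the test between the genotypes. Their adjusted p ranged from 0.971 to 0.996 by limma, from 0.976 to 0.995 by edgeR's quasi-likelihood test and was 1.00 by DESeq2, and 0 of the 9 had an unadjusted limma p under 0.05, against 4.31% of the genes tested. Their log2 fold changes lay between -0.08 and 0.09 with SEs of 0.05 to 0.14, 5 above and 4 below 0, and their median was 0.01, against -0.00 over all genes tested. In 1 of the 10 tubulins, Tubb2b, the values of the genotypes did not overlap. This happened in 10.1% of the genes tested, in 5.05% with TG lower. Since Tubb2b was chosen for its lower count in TG, nothing is read from that share.

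**Figure D3:**
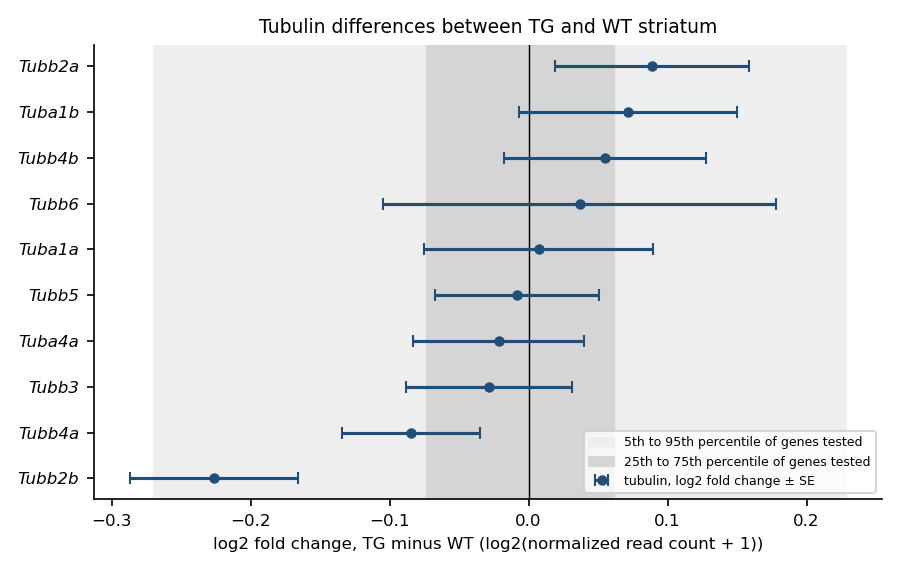
Log2 fold change, TG minus WT, of the 10 tubulins (points) with limma's SE (bars), ordered by size. The shaded bands show where the central 90% (light) and the central 50% (dark) of the 17605 genes tested lie, from -0.27 to 0.23 and from -0.07 to 0.06. Tubb2b at -0.23 is the farthest from 0, and the other 9 lie between -0.08 and 0.09.

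Levels were compared between the genes after division by length, as normalized reads per kilobase of annotated exon. Over the 6 libraries Tubb4a (10665 ± 445) and Tuba1a (10181 ± 866) stood at the head of the family. Next came Tubb2a (4870 ± 384), Tubb3 (4758 ± 263), Tubb5 (4134 ± 212), Tuba4a (3206 ± 179), Tuba1b (2689 ± 232) and Tubb4b (2598 ± 199). Tubb2b (1337 ± 140) and Tubb6 (72.9 ± 9.23) closed the order (SD, n = 6 each). As shares of the summed level per kilobase, Tubb4a made up 24.0% ± 1.31, Tuba1a 22.8% ± 1.20 and Tubb2b 3.01% ± 0.32, and Tubb6 made up 0.164% ± 0.02. The alpha tubulins together made up 36.1% ± 1.13.

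Of the 9 pairs of neighbours in that order, 6 kept the same direction in all 6 libraries. Each of these had an exact two-sided sign-flip permutation p of 0.03125, the smallest that 6 libraries can give, and an adjusted p of 0.0469 over the 9 pairs. Tubb4a was not separated from Tuba1a (higher in 3 of 6 libraries, exact permutation p = 0.25, adjusted 0.281), Tubb2a not from Tubb3 (4 of 6, exact p = 0.406, adjusted 0.406) and Tuba1b not from Tubb4b (5 of 6, exact p = 0.125, adjusted 0.161). Tubb2b stood 0.96 below Tubb4b and 4.20 above Tubb6 on the log2 scale of the level per kilobase. The order was unchanged with any 1 library left out and in the TG libraries alone, and in the WT libraries alone Tubb3 stood ahead of Tubb2a.

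The order, its top included, depended on the length used. The permutation test covers the spread between libraries and not errors of length. It was run on neighbours in an order taken from the means of the same 6 libraries, so the pairs and their directions were not set in advance. With the median length of coding transcripts Tuba4a led with 22.5%, since the median length of its annotated coding transcripts is 845 bases. A further length, chosen after the shared windows were seen, was the number of windows found in no other gene. The whole count of a gene was divided by it, including any reads from shared windows. By this length Tuba1a led with 29.6%, Tubb4a followed with 15.7%, and the alpha share was 48.1% ± 1.14. It is a fitting length only if reads that match several genes were left uncounted, which is not known here. Tubb2b was ninth and Tubb6 last under all 4 lengths. Tubb3 stood above Tubb5 by exon length but below it under every other length, with 4758 against 5192 per kilobase by the longest transcript. With the number of unshared windows as the length, Tuba4a stood below Tuba1b, with 4331 against 8875, the reverse of their order by exon length.

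**Figure D4:**
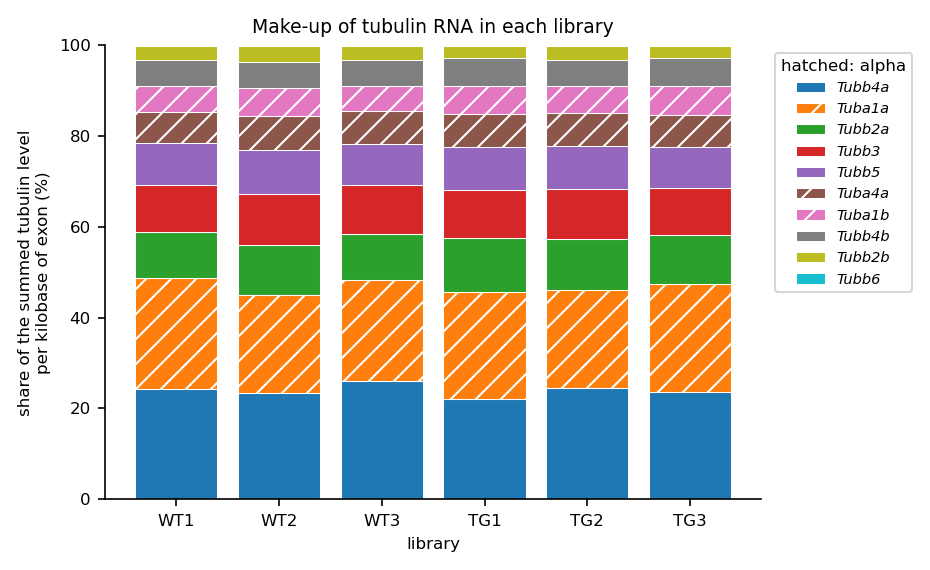
Share of each tubulin in the summed tubulin level per kilobase of exon (vertical axis, percent) in each of the 6 libraries, with alpha tubulins hatched. The make-up is alike in all 6, with Tubb4a between 22.1% and 26.0%, Tuba1a between 21.5% and 24.3% and Tubb2b, in olive near the top, between 2.61% and 3.45%.

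In 5 of the 6 libraries, at least 8 of the 10 tubulins lay to the same side of the mean of their own genotype. In TG replicate 2, 9 of the 10 lay below the TG mean and 8 were the lowest of the 3 TG libraries, with a median distance of -0.10 on the log2 scale, while 50.2% of all genes lay below. The exception was Tubb2b, which was highest there. TG replicate 1 had 8 of the 10 above the TG mean, with a median of 0.08. In WT replicate 2, 8 of 10 lay above the WT mean (median 0.09, the exceptions being Tubb4a and Tuba1a), and in WT replicates 1 and 3, 8 of 10 lay below (medians -0.03 and -0.07). TG replicate 3 was mixed, with 4 below and 6 above (median 0.03). The summed count of the 10 genes was 102025, 90516 and 100218 in TG and 98946, 101457 and 95900 in WT, between 0.289% and 0.324% of all counts in a library.

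**Figure D5:**
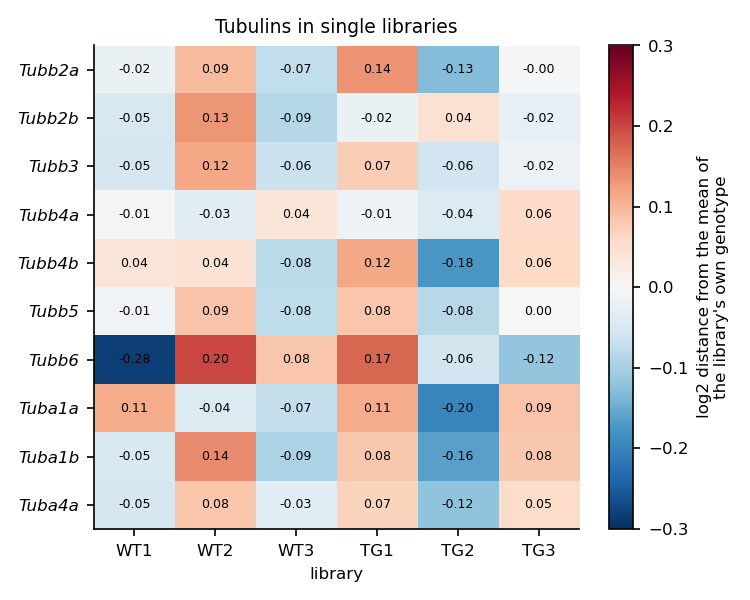
Distance of each tubulin in each library from the mean of its own genotype, on the log2 scale (blue lower, red higher). The TG replicate 2 column is blue for 9 of 10 genes and the TG replicate 1 and WT replicate 2 columns are red for 8 of 10 each.

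Markers of cell types also differed between these libraries. The summed count of 8 markers of cortical excitatory neurons was 40023, 28224 and 39223 in TG and 37568, 36017 and 32797 in WT, lowest in TG replicate 2 as for most tubulins. The sum of 10 markers of medium spiny neurons, the main neurons of the striatum, was 135899, 189750 and 159783 in TG and 163553, 170030 and 189789 in WT, with TG replicate 1 lowest. Of these 10 markers, 1 was above and 9 were below 0 in log2 fold change (median -0.13), the same direction as Tubb2b, and without TG replicate 1 there were 6 above and 4 below (median 0.02). The cortical markers were split 5 above and 3 below (median 0.06). The defining markers Drd1 and Drd2 were present in every library, with at least 4237 and 3158 normalized reads. In tissue, a smaller number of cells of a type and less RNA per cell cannot be told apart, and the part of these differences in the tubulin values was not tested.

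Because Tubb2b is used by young neurons, 12 markers of immature neurons and dividing progenitors, Dcx and Sox11 first among them, are set beside it. All 12 had log2 fold changes below 0, with a median of -0.17, and 0 passed the test. Their summed count was 6444, 5343 and 5229 in TG and 5933, 7767 and 5062 in WT, so the genotypes overlapped and WT replicate 2, the library with the most Tubb2b, was the highest. Without WT replicate 2, 6 of the 12 were above 0 and the median was 0.02, and the Tubb2b difference was -0.16. Dcx, a microtubule-binding protein of migrating neurons, had 1557 ± 161 normalized reads in TG and 1686 ± 411 in WT (SD, n = 3 each).

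Among the other lists, the 8 ependymal markers had 1 above and 7 below 0 (median -0.17), which turned to 5 above and 3 below (median 0.06) without WT replicate 2. The 8 microglia markers were all below 0 with a median of -0.11, and their sums, 11173 to 12059 in TG and 12103 to 12667 in WT, did not overlap. In 3 of the 8 the TG values all lay below the WT values, against 5.05% of all genes tested. An unadjusted limma p under 0.05 with TG lower was found for 3 of the 8, against 2.33% of all genes. For TG higher both counts were 0. Astrocyte and oligodendrocyte markers were split 4 above and 6 below 0 in each list (medians -0.06 and -0.03), and endothelial markers 3 above and 5 below (median -0.01). The 9 choroid plexus markers tested were all above 0 (median 0.86), and without TG replicate 1 there were 6 above and 3 below. No marker of any of these lists passed the test, and no list had a marker at 0 in all libraries. The part of each of these in the Tubb2b value was not tested.

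Of 10 further tubulin genes, the gamma tubulins, which seed new microtubules, were the most abundant, with 1170 ± 92.8 normalized reads in TG and 1251 ± 83.6 in WT for Tubg2 and 917 ± 31.2 and 891 ± 23.8 for Tubg1. Tuba3b, Tubal3 and Tubb1, the last a beta tubulin of platelets, had at most 2 recovered reads in any library and were under the filter. Of the 7 tested, 3 were above and 4 below 0 and 0 passed. Tuba3a, with the smallest unadjusted p, had 13.6 ± 4.56 against 8.76 ± 1.78 (limma adjusted p = 0.971).

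Newly made tubulin is carried by prefoldin to the CCT ring, folded there and joined into dimers by the tubulin cofactors. Of the 22 genes of these folding factors, 17 had log2 fold changes above and 5 below 0, with a median of 0.04 against -0.00 over all genes tested. In 6 of them the TG values all lay above the WT values, which was so in 5.06% of all genes tested, and 2 had an unadjusted limma p under 0.05 in that direction, against 1.98% of all genes. None passed the adjusted test. The CCT subunit Cct8 had 4451, 4313 and 4497 normalized reads in TG and 4094, 4016 and 3950 in WT, a log2 fold change of 0.14 (SE 0.04, limma adjusted p = 0.971). Cct7, the most abundant of the list, had 4858 ± 106 and 4719 ± 116.

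Of 19 microtubule lattice and minus-end binding proteins tested, 11 were above and 8 below 0 (median 0.01). The neuronal stabilisers Map1a and Map2 had log2 fold changes of -0.03 and 0.02 (SE 0.05 and 0.06), and Map7d2, which helps recruit kinesin, had 4818 ± 245 in TG and 4424 ± 138 in WT. Of 10 plus-end proteins, 8 were above and 2 below 0 (median 0.04), among them Clip1 at 0.08 (SE 0.04), whose TG values all lay above the WT values, Clasp2 at 0.04 (SE 0.05) and Mapre2 at -0.00 (SE 0.05). The TG values all lay above the WT values in 2 of the 10 plus-end genes and in 1 of the 19 others. This was so in 5.06% of all genes tested, and 0 genes of either list had all TG values lower. None of these genes passed the test.

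Proteins that take microtubules apart or sequester dimers numbered 14, with 9 above and 5 below 0 (median 0.02). Kif2a, a kinesin that depolymerises microtubule ends, had 2481, 2359 and 2436 normalized reads in TG and 2165, 2209 and 2118 in WT, with all TG values higher and a log2 fold change of 0.16 (SE 0.05, limma adjusted p = 0.971). Such a separation was found in 1 of the 14, against 5.06% of all genes tested, and 0 had all TG values lower. The stathmins Stmn1 and Stmn3, which hold free dimers, were at 0.01 (SE 0.08) and 0.04 (SE 0.06). Like most tubulins, Stmn1 was lowest in TG replicate 2, with 9976 normalized reads.

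Of 22 enzymes that modify tubulin, 10 were above and 12 below 0 (median -0.03). Tpgs1, a subunit of the complex that adds glutamate chains to tubulin tails, had 895, 912 and 856 normalized reads in TG and 990, 1032 and 985 in WT. The TG values were all lower, with a log2 fold change of -0.18 (SE 0.06, limma adjusted p = 0.971), and 3 of the 22 genes showed such a separation, against 5.05% of all genes tested. The unadjusted limma p was under 0.05 in that direction for 1 of the 22, against 2.33% of all genes. Ttll7, which adds glutamate to beta tubulin, and Agtpbp1, which removes it, were at 0.05 (SE 0.04) and 0.04 (SE 0.05). Of 19 genes of the nucleation complex and its anchors, 8 were above and 11 below 0 (median -0.02). The anchor Akap9 was at -0.08 (SE 0.06), and the small subunits Mzt1 and Haus2 were at 0.08 (SE 0.06) and 0.13 (SE 0.07). None of the genes of either list passed the test.

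The genes whose pattern over the 6 libraries was most like that of Tubb2b were not tubulins. Among 12831 genes with a mean of at least 100 normalized reads, the highest Pearson correlations of the log2 values with Tubb2b were those of Psmg4 (0.993), a proteasome assembly chaperone, Mtbp (0.993), Rpl31 (0.988), a protein of the large ribosomal subunit, Gng13 (0.988), a G protein gamma subunit, and 1110065P20Rik (0.985). All 5 were lower in mean in TG, as any gene close to Tubb2b over these libraries would be, and 22 genes had a correlation above 0.95. The other tubulins lay between -0.24 for Tubb4b and 0.51 for Tubb3. Tubb2a, its nearest relative, was at -0.23, which ranked 8489th, while Tubb3 and Tubb5 correlated with each other at 0.930. These correlations describe 6 libraries that share a size factor per library.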

How the data were processed

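Striatal RNA of 3 WT and 3 Shank3 TG mice was measured. Paired reads were trimmed by the authors with Trimmomatic 0.35, aligned to GRCm38 with TopHat2 2.1.0 and counted per gene with HTSeq, and the deposited signal is that count after division by the library's size factor from DESeq2. The strand setting, the treatment of reads with several matches and the annotation release are not given in the sources used here. Whole reads were recovered for 100% of values (within 0.01). All libraries were kept, and groups follow the sample labels.

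The 17605 genes that averaged 10 or more were tested on log2(value + 1) with limma 3.58.1 in R 4.3.3, with a trended prior variance, and adjusted across these genes after Benjamini and Hochberg. On this scale the change of low genes is understated. Alternatives were pseudocounts of 0.5 and 5, no filter, a mean of at least 50, TMM and library total scaling, edgeR 4.0.16, DESeq2 1.42.0 and limma-voom on recovered reads, a replicate block, each library left out, and other gene lengths. The fit was checked on simulated data. Coding sequences and windows as long as a read came from 141767 GENCODE M21 transcripts (GRCm38), leaving out genes annotated over the same locus. The tubulins and all gene lists were chosen with earlier results of these data known. Genes named are the 10 tubulins, the 2 most abundant members of each pathway list and the one with the smallest p, the first 2 and the most abundant of each marker list, the 5 genes most correlated with Tubb2b, and Shank3; marker genes are mostly given as sums. Stk16 and Tuba1c were named after their values were seen, as genes that share sequence with members. Tuba3b, Tubal3 and Tubb1 were named as the further tubulins under the filter.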

Additional observations from a re-analysis of the deposited data

How the results depend on the processing

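Of the 9 tubulins other than Tubb2b, 0 passed an adjusted p of 0.05 under any alternative. The direction of the Tubb2b difference is fixed by the choice of the family, so its sign under the alternatives is no sign of stability. Over all genes tested, limma called 1 gene, against 5 without a filter, 7 with DESeq2 and between 1 and 2 with 1 library left out. Leaving out 1 library turned the sign of 6 small log2 fold changes, whose ranges were -0.049 to 0.11 for Tuba1a, -0.055 to 0.039 for Tuba4a, -0.066 to 0.029 for Tubb3, -0.0035 to 0.14 for Tubb4b, -0.050 to 0.035 for Tubb5 and -0.10 to 0.14 for Tubb6, and the cause was not tested. Of the neighbours in the order of levels, 6 pairs passed by exon length and 6 by the longest transcript. By the median coding transcript 8 passed, and by the number of unshared windows 7. These were not always the same pairs or directions, since Tubb3 stood above Tubb5 by exon length only. With 5 libraries the smallest exact permutation p is 0.0625, so leaving out a library could not give a passing pair. With the replicate number as a block, 1 gene was called, 0 tubulins other than Tubb2b were, and the Tubb2b difference was -0.23. Deviations of same-numbered libraries correlated at 0.05, 0.02 and 0.09, so the numbers were not taken to pair the mice. Depth limits Tubb6 most, and shared sequence limits the levels of Tubb2a, Tubb2b, Tuba1a, Tuba1b and Tubb4b (28.8% of windows, all in pseudogenes).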
